A study of Mus musculus with 4 samples.

Results

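Among 28987 genes in an expression table of mouse bone marrow progenitors, given in TPM (a length-scaled share of all transcripts in a library), 10 germline or germline-related genes were followed. Hormad2, Stag3, Tdrd9, Oosp1 and Oosp2 had been picked because they were expressed in the libraries with intact Hif1a and nearly absent from those labelled Hif1a-null. Hormad1, Rec8, Syce2, Tdrd7 and Stag1, which are relatives or partners of these genes, served as comparison. Because the first 5, called the switched genes here, were chosen on their values in these same libraries, those values are given as a description without a test. All 10 were found in the table, and 9 of them reached 1 TPM in at least 2 libraries, the level needed to enter the test across all genes. Hormad1 did not. Of the switched genes, only Oosp1 reached that level in both Hif1a-null libraries, so the others entered because of the Hif1a-intact ones. Tdrd9 and Oosp2 reached it in neither Hif1a-null library.

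RNA was sequenced from 4 libraries of c-Kit+ bone marrow cells of C57BL/6 mice, collected with CD117 magnetic beads and described as hematopoietic stem and progenitor cells. The 2 Hif1a-intact libraries had the genotype MllPTD/WT, Runx1Flox/Flox, Mx1-Cre. The 2 Hif1a-null libraries carried Hif-1alpha Flox/Flox in addition. Every library therefore shared the partial tandem duplication of Mll on 1 allele and the floxed Runx1 alleles, and none had normal Mll and Runx1, so the comparison concerns Hif1a on that background only. The sample titles also call all 4 libraries Runx1null. Mx1-Cre is driven by an interferon-inducible promoter that is active in many tissues, and the way it was induced, the age of the mice and whether each library came from a separate mouse are not stated in any source at hand. The p-values below therefore measure only the spread between these libraries, which may be technical. Kit, the receptor used for the selection, read 128 and 126 TPM with intact Hif1a and 121 and 102 TPM in the Hif1a-null libraries.

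Hif1a itself was listed at 100.3 and 75.2 TPM where labelled intact and at 98.8 and 113 TPM in the libraries labelled Hif1a-null, so the gene's total level did not check the labels. A gene-level TPM cannot show whether a floxed exon is missing, and the direction of every difference below rests on the labels. Runx1, floxed in all 4 and titled null, read 73.6 and 76.6 TPM against 48.4 and 46.7 TPM, which did not check that label either. Kmt2a, the gene called Mll in the labels, read 9.41 and 9.96 TPM against 9.77 and 9.03 TPM. Neither Runx1 nor Kmt2a passed the test across all genes (limma, adjusted p = 0.0636 and 0.895). Rps12, a ribosomal protein gene that every cell uses, was listed at 6.3e-07 TPM in Hif1a-intact replicate 1, so a value at or near 0 in this table can be a failed estimate and is given below for each library.

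Meiosis pairs and recombines homologous chromosomes on a protein axis, and several of its parts are made only in germ cells. HORMAD1 and HORMAD2 mark axes that have not synapsed, STAG3 and REC8 are the meiotic subunits of cohesin, the ring that holds sister chromatids together, and SYCE2 belongs to the central element of the synaptonemal complex that joins paired axes. TDRD9 and TDRD7 are Tudor-domain proteins of germ granules, where piRNAs, small RNAs that silence transposons, are made and used, and OOSP1 and OOSP2 are proteins secreted by oocytes. In somatic cells many such genes are held silent by DNA methylation and by repressors that bind their promoters.

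The promoter windows of the 5 switched genes and of the relative Hormad1, listed at 0 TPM, are shown because they differ widely in CpG content and in short motifs. RefSeq on GRCm38.p6 gave windows from 250 bases before to 50 bases after a start for all 10 genes. Those printed lie at chr11:4441033-4441332 (minus strand, Hormad2), chr5:138280259-138280558 (plus strand, Stag3), chr12:111971309-111971608 (plus strand, Tdrd9), chr19:11691002-11691301 (minus strand, Oosp1), chr19:11660510-11660809 (minus strand, Oosp2) and chr3:95559427-95559726 (plus strand, Hormad1, the first of its 2 windows). Each reads 5′ to 3′ in the direction of its gene, and capitals mark ACGTG or GCGTG, the core of the element that HIF factors bind, on either strand.
Hormad2: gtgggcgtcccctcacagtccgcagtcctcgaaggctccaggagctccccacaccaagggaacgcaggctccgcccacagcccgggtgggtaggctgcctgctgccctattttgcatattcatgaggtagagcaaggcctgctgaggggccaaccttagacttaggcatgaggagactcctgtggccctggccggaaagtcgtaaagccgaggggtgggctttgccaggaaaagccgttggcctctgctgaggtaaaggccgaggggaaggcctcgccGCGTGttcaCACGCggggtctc
Stag3: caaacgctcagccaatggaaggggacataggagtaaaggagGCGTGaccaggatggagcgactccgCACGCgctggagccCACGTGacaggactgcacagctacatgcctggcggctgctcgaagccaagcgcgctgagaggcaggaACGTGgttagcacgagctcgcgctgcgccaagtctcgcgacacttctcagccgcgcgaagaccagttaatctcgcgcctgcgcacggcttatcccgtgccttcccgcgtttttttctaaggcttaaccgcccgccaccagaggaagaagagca
Tdrd9: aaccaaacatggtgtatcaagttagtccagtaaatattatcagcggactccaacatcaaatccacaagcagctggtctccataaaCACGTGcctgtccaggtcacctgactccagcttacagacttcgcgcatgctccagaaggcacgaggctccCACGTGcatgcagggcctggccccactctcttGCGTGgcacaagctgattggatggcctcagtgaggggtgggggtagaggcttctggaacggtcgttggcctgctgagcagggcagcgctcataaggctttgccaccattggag
Oosp1: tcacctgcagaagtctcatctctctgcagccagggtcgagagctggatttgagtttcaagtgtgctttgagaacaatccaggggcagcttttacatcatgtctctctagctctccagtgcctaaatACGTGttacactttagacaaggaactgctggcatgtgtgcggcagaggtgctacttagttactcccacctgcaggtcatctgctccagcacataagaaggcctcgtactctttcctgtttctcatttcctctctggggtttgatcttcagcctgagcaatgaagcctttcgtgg
Oosp2: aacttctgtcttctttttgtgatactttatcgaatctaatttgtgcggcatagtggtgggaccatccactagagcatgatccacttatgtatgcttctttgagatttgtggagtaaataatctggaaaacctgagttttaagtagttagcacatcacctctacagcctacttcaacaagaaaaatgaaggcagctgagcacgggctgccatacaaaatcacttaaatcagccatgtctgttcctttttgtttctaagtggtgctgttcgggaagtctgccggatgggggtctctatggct
Hormad1: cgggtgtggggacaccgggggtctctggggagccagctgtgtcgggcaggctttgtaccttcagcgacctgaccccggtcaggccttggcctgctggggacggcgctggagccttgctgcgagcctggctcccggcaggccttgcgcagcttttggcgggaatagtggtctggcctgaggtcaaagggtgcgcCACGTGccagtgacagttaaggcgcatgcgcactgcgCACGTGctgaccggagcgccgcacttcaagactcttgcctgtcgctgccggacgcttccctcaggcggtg

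CpG dinucleotides, the sites of DNA methylation, numbered 30 in the Stag3 window and 16 in the Hormad2 window, against 10 for Tdrd9 and 5 each for Oosp1 and Oosp2. The median over all 32841 windows was 7, with the middle 50% of windows between 3 and 20. The observed CpG count was 1.06 times that predicted from base composition for Stag3 and 0.534, 0.430, 0.275 and 0.373 times for Hormad2, Tdrd9, Oosp1 and Oosp2, beside a median of 0.384. The switched genes thus ranged from a CpG-rich window, with more CpG than 88.3% of windows, to CpG-poor ones, with more than 38.0%. The Stag3 window, placed by its RefSeq start, lies wholly inside the gene as GENCODE annotates it. Its CpG count and motif positions therefore depend on the annotation. Hormad1, listed at 0 TPM throughout, had 24 CpG, more than 80.0% of windows.

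**Figure D1:**
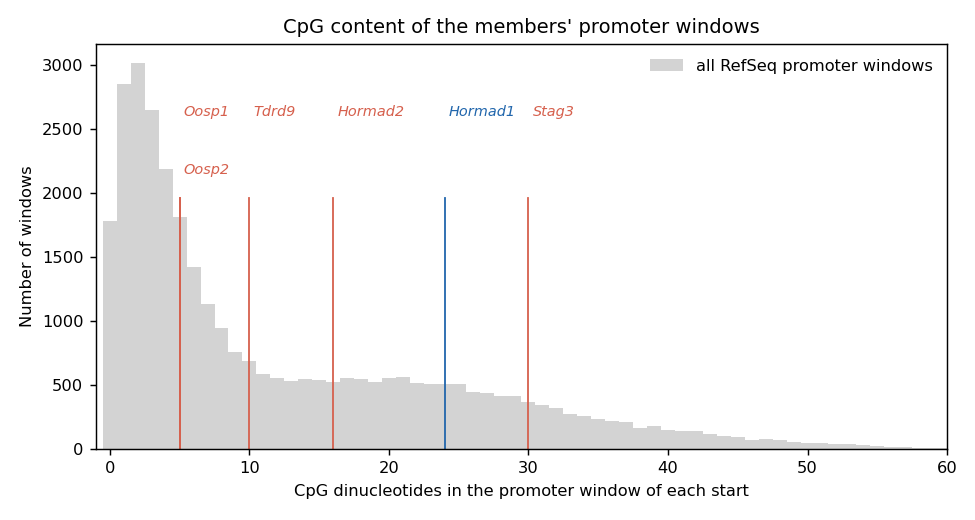
CpG count in the promoter windows. The grey bars give the number of RefSeq windows (vertical axis) at each CpG count (horizontal axis), and the marked lines give the windows of the switched genes and of Hormad1. Stag3, at 30, and Hormad1, at 24, lie right of the upper quartile of 20, and Oosp1 and Oosp2, at 5, lie left of the median of 7.

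Either HIF core was found in 4 of the 5 switched windows, all but that of Oosp2, and in 43.8% of all windows. ACGTG was present in 3 of the 5 (Stag3, Tdrd9 and Oosp1) and in 19.6% of all windows, and GCGTG in 3 of the 5 (Hormad2, Stag3 and Tdrd9) and in 32.4%. In Hormad2 both GCGTG matches lay after the start. Among the comparison genes, a core was likewise matched in windows of Hormad1, Stag1, Syce2 and Tdrd7, and not in Rec8. Syce2 and Tdrd7 also had windows without a match. The E-box CACGTG, bound by MGA with MAX and by many other factors, reads the same on both strands and contains ACGTG on each. It was matched once in Stag3, 170 bases before the start, and at 2 places in Tdrd9, 165 and 95 bases before it. Hormad1 had it at 2 places, 57 and 20 bases before the start, and Syce2 had it in the second of its 2 windows. The share over all windows was 7.15%. GCGGGA, a sequence E2F factors can bind, was matched in Stag3, alone among the switched windows, and in 20.0% of all windows. Windows of the comparison genes Hormad1, Rec8, Syce2 and Stag1 matched it too. The GATA motif TGATAA was matched in Tdrd9 and in 9.05% of windows. AGATAA, present in 11.2% of windows, and the RUNX motif TGTGGT, present in 16.8%, were matched in none of the 5 switched windows. TGTGGT was matched in windows of the comparison gene Syce2. All motifs were searched on both strands. A match is a run of letters and no evidence that a factor was bound, and a missing match says nothing about the factor beyond these 300 bases.

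Hormad2 (ENSMUSG00000020419, chr11:4345814-4441105, minus strand) had the largest difference of the 10 genes in log2(TPM + 1), though with a pseudocount of 0.1 Tdrd9 passed it, at -6.81 against -5.58. Hormad2 read 32.1 and 34.0 TPM with intact Hif1a and 1.17 and 0.276 TPM in the Hif1a-null libraries. The group means were 33.0 ± 1.30 and 0.723 ± 0.632 TPM (SD, n = 2 each), a difference of -4.35 in log2(TPM + 1), Hif1a-null minus Hif1a-intact. The lowest Hif1a-intact library lay 27.4 times above the highest Hif1a-null library. Its paralogue Hormad1 (ENSMUSG00000028109, chr3:95559677-95587671), which acts on the same axes, was listed at 0 TPM in all 4 libraries, as was Gm15529, whose annotated transcript is 97.9% identical to it. Whether these zeros are failed estimates was not tested.

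Stag3 (ENSMUSG00000036928, chr5:138280240-138312393, plus strand) read 14.8 and 12.9 TPM with intact Hif1a and 0.868 and 1.23 TPM in the Hif1a-null libraries. The means were 13.8 ± 1.37 and 1.05 ± 0.253 TPM (SD, n = 2 each), which differed by -2.86 in log2(TPM + 1). The Hif1a-null mean was thus 7.56% of the Hif1a-intact mean, and the groups were separated by a factor of 10.5 between their nearest libraries. Its ubiquitous counterpart Stag1 (ENSMUSG00000037286, chr9:100597798-100959375) read 62.9 and 48.5 TPM against 35.4 and 37.9 TPM, a log2 difference of -0.58. Stag1 was lower in the Hif1a-null libraries without overlap, but by far less than Stag3. Of the summed TPM of Stag1, Stag2 and Stag3, which compete for the same place in the cohesin ring, Stag3 made up 9.16% and 10.1% with intact Hif1a and 0.761% and 1.03% in the Hif1a-null libraries.

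The meiotic partners of Stag3 did not show its pattern. Rec8 (ENSMUSG00000002324, chr14:55618037-55625395), the meiotic kleisin of the same ring, read 5.05 and 2.92 TPM against 2.72 and 2.93 TPM, so its groups overlapped (log2 difference -0.35). Smc1b, the meiotic SMC subunit, stayed at or below 0.0227 TPM, and Rad21l, the other meiotic kleisin, was listed at 0 in all 4 libraries. Syce2 (ENSMUSG00000003824, chr8:84872111-84888221) read 20.4 and 15.1 TPM against 12.1 and 8.44 TPM, a log2 difference of -0.74 without overlap. Syce2 overlaps the housekeeping gene Gcdh on the opposite strand, which read between 7.55 and 8.56 TPM, and whether the quantification used strand was not given in the sources used here. Sycp1 and Sycp3, the transverse filament and an axis core of the synaptonemal complex, were listed at 0 throughout.

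Tdrd9 (ENSMUSG00000054003, chr12:111971559-112068854, plus strand) encodes an RNA helicase of the piRNA pathway. It read 14.8 and 12.6 TPM with intact Hif1a, and 0.0504 and 0 TPM in Hif1a-null replicates 1 and 2. It was the only switched gene listed at 0 in a library, so no fold is given. Tdrd7 (ENSMUSG00000035517, chr4:45965334-46034761), a Tudor-domain relative that is also expressed outside the germline, read 19.4 and 18.3 TPM against 20.7 and 17.5 TPM. Its groups overlapped and its log2 difference was 0.01. Tdrd9 lies 38.0 Mb from Hif1a on chromosome 12. Rd3l, annotated inside Tdrd9 on the other strand, was listed at 0 in all 4 libraries.

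Oosp1 (ENSMUSG00000041857, chr19:11667460-11691150, minus strand) was the most abundant of the switched genes. It read 59.2 and 57.3 TPM with intact Hif1a and 4.28 and 3.93 TPM in the Hif1a-null libraries, with means of 58.2 ± 1.36 and 4.11 ± 0.245 TPM (SD, n = 2 each) and a log2 difference of -3.54. Its Hif1a-null level of about 4 TPM was the highest among the 5 and differed little between the 2 libraries. Oosp2 (ENSMUSG00000055895, chr19:11647279-11660559, minus strand), whose end lies 6.90 kb from Oosp1, read 10.9 and 6.78 TPM against 0.122 and 0.564 TPM. Its means were 8.86 ± 2.95 and 0.343 ± 0.312 TPM (SD, n = 2 each), a log2 difference of -2.86. The lowest Hif1a-intact library of Oosp2 stood 12.0 times above its highest Hif1a-null library. The ratio of Oosp1 to Oosp2 was 5.41 and 8.45 with intact Hif1a and 34.9 and 6.97 in the Hif1a-null libraries, where it rested on Oosp2 values under 1 TPM. Oosp3, the third gene of the cluster, was listed at 0 in all 4 libraries.

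**Figure D2:**
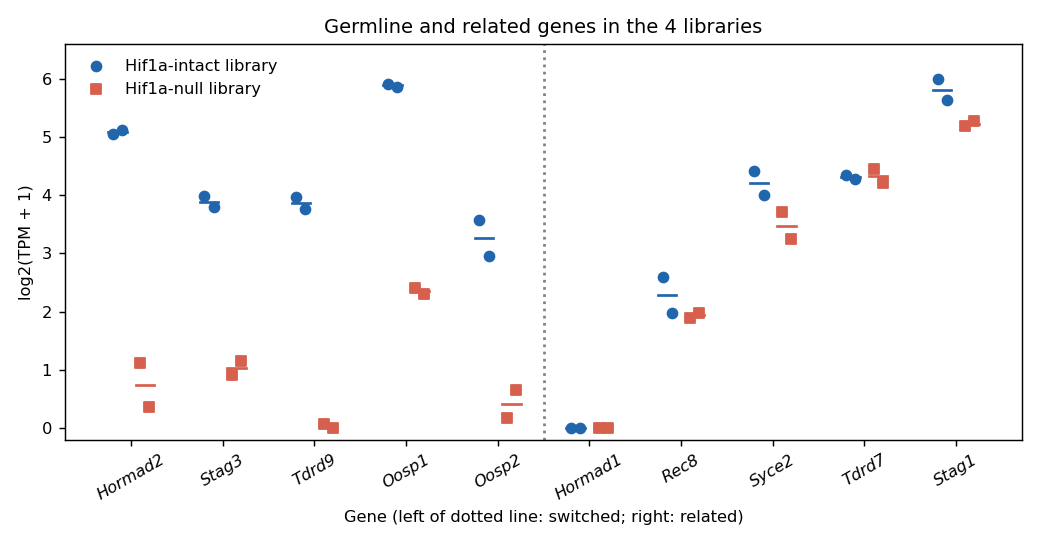
TPM of the 10 genes in each library. Each point is 1 library on a log2(TPM + 1) axis, the colours separate Hif1a-intact from Hif1a-null, and the bars give group means. The switched genes, at the left, show no overlap between groups, Rec8 and Tdrd7 overlap, and Hormad1 lies at 0 throughout.

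TPM is scaled by transcript length, so levels can be set side by side. With intact Hif1a the order was Oosp1, then Hormad2, then Stag3 and Tdrd9, whose libraries overlapped, then Oosp2. The 5 switched genes together made up 132 and 123 TPM with intact Hif1a and 6.49 and 6.00 TPM in the Hif1a-null libraries, and the 5 comparison genes made up 108 and 84.9 against 70.9 and 66.7 TPM. The first pair of sums restates how the switched genes were chosen. In RNA from a mixed population, fewer cells expressing a gene and less RNA in each cell cannot be told apart. No other gene of the table shared a near-identical transcript with any of the 5, by a search of their annotated transcripts at 95% identity.

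The background of the comparison was broad. Of 11909 genes tested with limma, 866 (7.27%) passed an adjusted p of 0.05 in either direction, with 241 (2.02%) lower and 625 (5.25%) higher in the Hif1a-null libraries, and the median log2 difference over all tested genes was -0.06. An unadjusted p under 0.05 was reached by 2767 genes, or 23.2%. Among all tested genes, 3841 (32.3%) were lower in both Hif1a-null libraries than in both Hif1a-intact ones, and 6545 (55%) had groups that did not overlap in either direction, so the lack of overlap in Syce2 and Stag1 was common. The calls rest on both Hif1a-null libraries: without replicate 1 limma called 11 genes higher and 8 lower, and without replicate 2 it called 0, the spread then coming from the Hif1a-intact pair alone. A larger difference was counted as a description only, since the switched genes were chosen on these same values. Of 8384 genes with at least 5 TPM in both Hif1a-intact libraries, 10 (0.119%) had both Hif1a-null libraries more than 10 times below the lower of these values, a cutoff set after the values had been seen. They were the 5 switched genes, the protein-coding genes Lhx2, Perp and Ankrd63, the pseudogene Gm15610 and a gene without a symbol, ENSMUSG00000087653. In the opposite direction, 99 of 8623 genes (1.15%) met the same condition, none of them among the 10 genes.

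Outside the 10 genes, most germline genes were at or near 0 in both groups. Of 99 further genes of the meiotic axis, recombination, the piRNA pathway, oocytes and defining germ cell markers, 95 were in the table, 76 stayed under 1 TPM in all 4 libraries and 35 were listed at 0 throughout. Of the 17 that could be tested, 0 were higher and 1, Dmc1, was lower in the Hif1a-null libraries by limma, and 3 (17.6%) had an unadjusted p under 0.05, against 23.2% of all tested genes. Their median log2 difference was -0.08, near the -0.06 of all tested genes. Their summed TPM was 143 and 147 with intact Hif1a and 135 and 125 in the Hif1a-null libraries. The sums of these other germline genes were thus close in the 2 groups. As 76 of the 95 stayed under 1 TPM, the sums rest mainly on the others, such as Psmc3ip. The switched genes were chosen for their difference, so no contrast with their sums is read.

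Dmc1, the meiotic recombinase that carries out strand exchange between homologues, read 2.77 and 2.99 TPM with intact Hif1a and 0.102 and 0.443 TPM in the Hif1a-null libraries. It fell by 1.62 ± 0.183 (SE) in log2(TPM + 1), with a limma adjusted p of 0.0208. It reached the 1 TPM filter only through the Hif1a-intact libraries, so no higher call was open to it, and its adjusted p ran from 0.0145 to 0.194 over 10 other settings. The call was lost with a pseudocount of 0.1 (adjusted p = 0.0649), without the filter (0.0534), and without Hif1a-null replicate 1 (0.194) or replicate 2 (0.157), and without either Hif1a-intact library Dmc1 no longer reached the filter. Of the 25 recombination genes, 24 were in the table and 12 were tested, and Dmc1 was the one called.

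Other recombination genes showed smaller or opposite differences that missed the threshold. Mei4, an accessory factor for meiotic double-strand breaks, read 2.40 and 1.31 TPM against 3.28 and 3.38 TPM (log2 difference 0.63, limma adjusted p = 0.209). Psmc3ip and Mnd1, the pair that assists strand exchange, read 21.0 and 38.6 against 17.2 and 18.1 TPM and 9.85 and 6.67 against 5.93 and 4.99 TPM (limma adjusted p = 0.314 and 0.283). Without Hif1a-intact replicate 1, Psmc3ip and Mei4 both passed, at adjusted p = 0.0395 and 0.0449. Cntd1, a cyclin-domain protein of crossover maturation, read 6.20 and 3.38 against 0.646 and 1.83 TPM (log2 difference -1.38, limma adjusted p = 0.138), but shares a near-identical transcript with Becn1, so its level is uncertain. Trip13, the ATPase that removes HORMA-domain proteins from axes and also serves mitotic cells, read 14.0 and 12.7 against 11.2 and 12.0 TPM. None of these differences could be told from the spread between libraries with all 4 included.

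In the remaining germline lists nearly all genes were listed under 1 TPM. In the axis and synaptonemal complex list, 13 of 14 measured genes outside the 10 were under 1 TPM in every library, and Sgo2a, which protects centromeric cohesin, read 9.51 and 8.16 against 9.77 and 9.78 TPM (limma adjusted p = 0.631). In the piRNA list, 21 of 24 genes were under 1 TPM in all 4 libraries. Its tested members included Tdrd3, a Tudor-domain protein active in many tissues, which read 12.3 and 8.95 against 9.92 and 11.4 TPM (limma adjusted p = 0.975). In the oocyte list, 20 of 22 measured genes were under 1 TPM, and Tle6, a component of the subcortical maternal complex, read 15.7 and 11.1 against 14.9 and 12.0 TPM (limma adjusted p = 0.974).

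**Figure D3:**
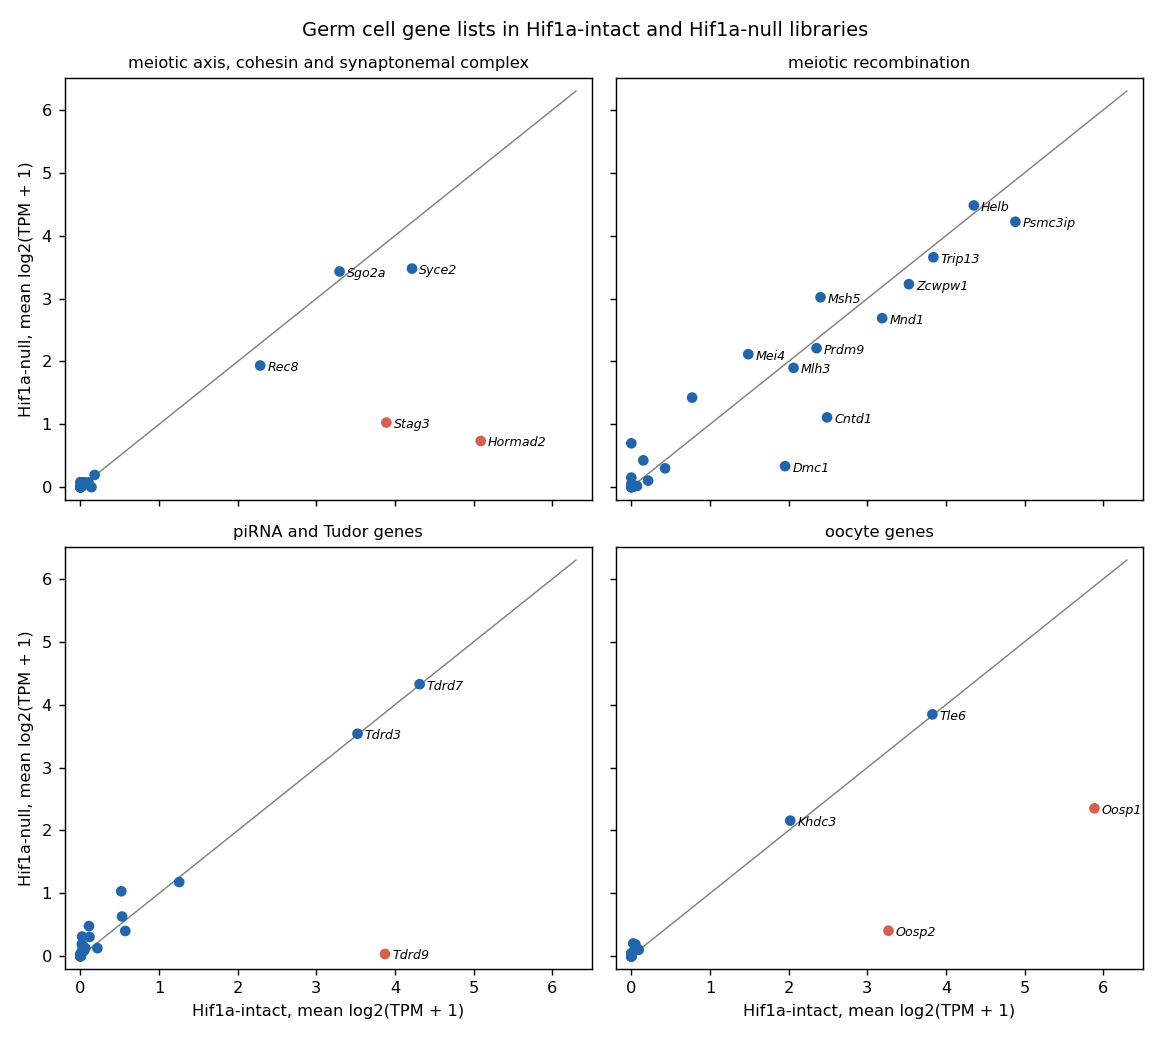
Mean TPM of each germline gene with intact Hif1a (horizontal axis) against its mean in the Hif1a-null libraries (vertical axis), on log2(TPM + 1) axes. Each point is 1 gene, the diagonal marks equal levels, and the switched genes are coloured. The switched genes lie far below the diagonal, Dmc1 lies below it at a low level, and most of the other genes sit at or near the origin.

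Defining markers of germ cells were at or near 0 in both groups. None of the 18 markers, all of them in the table, could be tested: 10 were listed at 0 in all 4 libraries, 17 were under 1 TPM in every library, and the highest value was 1.25 TPM, for the germ cell helicase Ddx4. Their summed level was 1.05 and 1.31 TPM with intact Hif1a and 1.34 and 2.34 TPM in the Hif1a-null libraries, of which Ddx4 made up 0.615 and 0.272 TPM and 0.858 and 1.25 TPM, and no order is read from sums this low.

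Somatic cohesin genes, which keep sister chromatids together in dividing blood cells, gave no call. All 16 measured outside the 10 genes were tested, 0 were called by limma in either direction, 2 (12.5%) had an unadjusted p under 0.05 against 23.2% of all tested genes, and the median log2 difference was 0.04. Stag2, the counterpart of Stag1, read 84.2 and 66.6 TPM against 77.8 and 80.3 TPM (limma adjusted p = 0.834). Esco2, the acetyltransferase that makes cohesion in S phase, read 34.4 and 40.7 TPM against 63.6 and 64.4 TPM, a log2 difference of 0.76 that missed the threshold (limma adjusted p = 0.0639).

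A list of repressor genes included DNA methyltransferases and subunits of the E2F6 and MGA complex, which keep germline promoters silent in somatic cells. All of its genes entered the test. Of 26 tested, 0 were called higher and 1 lower by limma, 2 (7.69%) had an unadjusted p under 0.05 against 23.2% of all tested genes, and the median log2 difference was -0.16. The called gene was Zbtb16, a zinc finger repressor of blood and germline stem cells. It belongs to neither of these groups, and none of their genes was called. Zbtb16 read 2.54 and 2.61 TPM with intact Hif1a and 0.589 and 0.419 TPM in the Hif1a-null libraries. It fell by 1.25 ± 0.134 (SE) in log2(TPM + 1), with a limma adjusted p of 0.0183, and it too passed the filter only through the Hif1a-intact libraries. Its adjusted p ran from 0.0130 to 0.318 over 10 other settings, and the call was lost without Hif1a-null replicate 1 (0.213) or replicate 2 (0.318). Dnmt1, the maintenance methyltransferase, read 49.0 and 51.4 TPM against 38.4 and 44.5 TPM (limma adjusted p = 0.347), and Hells, a chromatin remodeller needed for DNA methylation, read 531 and 643 TPM against 411 and 431 TPM (limma adjusted p = 0.183). E2f6 and Mga differed by -0.20 and -0.17 in log2 (limma adjusted p = 0.604 and 0.628).

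None of the genes beside the switched genes on the chromosome, leaving out the switched genes themselves, was called. The 3 nearest protein-coding genes on each side gave 24 neighbours, of which 22 were analysed here, 13 were tested and 0 were called by limma, while 5 (38.5%) had an unadjusted p under 0.05, against 23.2% of all tested genes. Of these 5, Gpc2, Ppp1r13b, Ms4a3 and Mrpl16 had lower means in the Hif1a-null libraries and Ms4a6d a higher one. The log2 differences of the 13 tested neighbours ran from -0.72 to 1.05 with a median of -0.13. The other 9 included 8 that stayed under 1 TPM in all 4 libraries.

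Gpc2, a cell-surface proteoglycan gene, starts 235 bases from Stag3 on the opposite strand in the GENCODE annotation. The RefSeq start used for the printed Stag3 window lies further inside Stag3, so this distance depends on the annotation. Gpc2 read 3.99 and 3.01 TPM with intact Hif1a and 1.90 and 2.16 TPM in the Hif1a-null libraries (log2 difference -0.56, limma adjusted p = 0.157). Mtmr3, a lipid phosphatase gene and the upstream neighbour of Hormad2, read 47.9 and 45.7 TPM against 48.8 and 48.5 TPM (limma adjusted p = 0.840). Upstream of Tdrd9, Ppp1r13b, which encodes a partner of p53, differed by -0.72 in log2 (limma adjusted p = 0.179). As the switched genes were chosen on their own differences, no contrast with those of the neighbours is read.

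Oosp1 and Oosp2 adjoin the Ms4a genes, a cluster of membrane proteins of blood cells. Ms4a3, a gene of granulocyte progenitors 6.43 kb from Oosp2, read 373 and 414 TPM with intact Hif1a and 282 and 298 TPM in the Hif1a-null libraries (log2 difference -0.44, limma adjusted p = 0.163). Ms4a2, the beta chain of the IgE receptor of mast cells and basophils, read 14.7 and 8.82 TPM against 13.8 and 12.8 TPM (limma adjusted p = 0.711). Ms4a6d read 1.49 and 0.830 TPM against 3.52 and 3.34 TPM (log2 difference 1.05, limma adjusted p = 0.0590). The genes next to the Oosp pair thus lay on either side of 0. On the other side of Oosp1, beyond Oosp3, Gif and Mrpl16, Stx3 lay 84.0 kb away. This syntaxin gene, named after its values were seen, read 13.2 and 11.6 TPM against 2.81 and 2.95 TPM, a log2 difference of -1.78 given without a test.

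**Figure D4:**
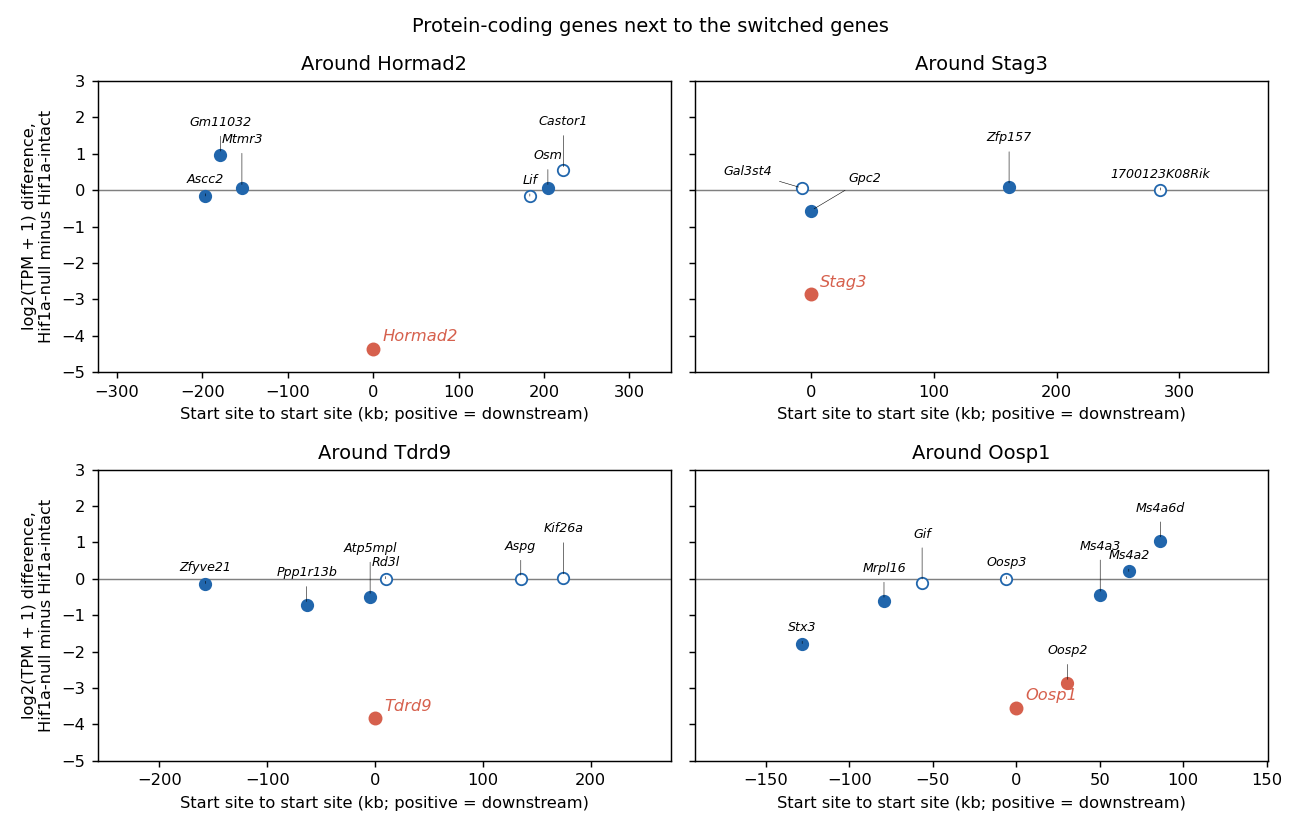
Log2(TPM + 1) difference, Hif1a-null minus Hif1a-intact (vertical axis), of protein-coding genes by distance between start sites in kb from Hormad2, Stag3, Tdrd9 or Oosp1 (horizontal axis). Red points are switched genes, filled blue points were tested and open points were too low to test. All blue points but Stx3, which was added after its values were seen, lie between -0.72 and 1.05.

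Among genes with a symbol, those whose values over the 4 libraries were nearest to the mean of the switched genes came from other families. The likeness was the Euclidean distance between log2(TPM + 1) profiles over 4 libraries of 2 genotypes, which rewards an equal level and an equal difference, and the genes so chosen are described without a test. The ranking left out genes without a symbol, predicted or clone-named genes, and immunoglobulin or T cell receptor segments. The gene without a symbol named above was therefore not ranked. Of the ranked genes, the nearest were Ankrd63 at 0.535, Perp at 0.797 and Lhx2 at 1.07. The switched genes themselves lay between 0.771 for Stag3 and 2.93 for Oosp1, so Ankrd63 was nearer to their mean than any of them. Ankrd63, an ankyrin-repeat gene, read 15.4 and 15.5 TPM against 0.984 and 0.916 TPM. Perp, a membrane protein of cell junctions and a p53 target, read 22.8 and 29.9 TPM against 1.18 and 1.47 TPM. Lhx2, a LIM homeobox transcription factor, read 45.5 and 19.7 TPM against 1.15 and 1.08 TPM. Galnt3, Itga9, Abhd15, Tgfbi and Stx3 followed at distances from 1.65 to 1.75. No germline gene outside the switched genes was among these 8.

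Markers of several blood cell types also differed between the groups, and their part in the switched genes' difference was not tested. Mast cell and basophil markers, summed over 12 genes, made up 788 and 557 TPM with intact Hif1a and 272 and 252 TPM in the Hif1a-null libraries. Of these 12, 6 were tested and 2 were called lower by limma, namely Cpa3, a mast cell protease (526 and 289 TPM against 42.3 and 42.4 TPM, adjusted p = 0.0158), and Gata2, a factor of progenitors and mast cells (14.6 and 13.6 TPM against 6.68 and 6.21 TPM, adjusted p = 0.0267), while 4 were listed at 0 in every library. Cpa3 carried most of the difference in the sum: the other 11 genes together made up 261 and 268 TPM against 230 and 210 TPM.

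Markers of several other lineages were called higher in the Hif1a-null libraries. Of 12 erythroid markers, 11 were called higher by limma, with sums of 181 and 122 TPM against 7062 and 7491 TPM. Of 10 megakaryocyte markers 6, and of 10 tested B-lineage markers 9, were called higher, with sums of 54.3 and 52.6 against 180 and 200 TPM and of 21.8 and 18.2 against 240 and 236 TPM. Granulocyte markers, 7 of 13 called higher, summed to 32909 and 28913 against 41954 and 40817 TPM. Monocyte and macrophage markers, 2 of 9 tested called higher and 2 lower, summed to 628 and 675 against 541 and 583 TPM, or to 205 and 218 against 233 and 229 TPM without Ly86. Of 7 tested T and NK cell markers 6 were called higher, with sums of 184 and 290 against 189 and 216 TPM. These sums were mostly Nkg7, a granule protein gene that was not called (177 and 284 against 122 and 144 TPM), and the other 9 made up 7.44 and 5.92 against 67.3 and 72.6 TPM. Of 8 tested stromal and endothelial markers 2 were called higher and 2 lower, with sums of 63.1 and 55.1 against 75.2 and 84.4 TPM, or 30.6 and 22.9 against 59.4 and 68.4 TPM without Pecam1. The composition of the c-Kit+ cells and the level of the switched genes within them cannot be separated in these libraries.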

How the data were processed

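RNA-seq of 4 libraries, 2 per genotype, was available as one deposited table with 1 value per gene and library. The submitters' processing notes name kallisto and mm10; no source at hand gives the kallisto version or transcript set. The deposited values are taken as TPM because the columns sum to between 955562 and 963135, so read depth is unknown and no counting interval can be given. Of 28987 genes, 27458 matched a symbol in GENCODE vM21 and 8906 were 0 in all libraries. The 10 genes, the gene lists and the tests were chosen with earlier results of these data known.

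Values were transformed to log2(TPM + 1), which understates differences of low genes, and genes reaching 1 TPM in 2 or more libraries were tested with limma 3.58.1 in R 4.3.3 (two-sided, Benjamini-Hochberg over all tested genes, 2 residual degrees of freedom, threshold 0.05). The procedure was tested on simulated data. Besides the 10 genes, those named were the neighbours, up to 4 genes of smallest p in each list, germline list genes of at least 5 TPM, the 8 nearest profiles and label checks; other names were chosen after their values were seen. Neighbours came from GENCODE vM21. Near-identical transcripts were searched with blastn 2.17.0 (95% identity over at least 50% of the shorter and 100 bases). Marker sums without the most abundant gene were added after the sums had been seen. Alternatives changed the pseudocount, scaling, filter, variance model or left out a library. A comparison of the protein sequences was not made. Python 3.11.15 and matplotlib 3.10.9 were used.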

Additional observations from a re-analysis of the deposited data

How the results depend on the processing

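With 2 libraries per genotype the counts of calls depended on the settings. The 625 genes called higher became 332 with a filter of 5 TPM, and the 241 called lower became 138 without a filter. Leaving out 1 library gave 0 to 731 higher and 0 to 288 lower calls; the low ends came without a Hif1a-null library. Quantile normalization moved the share of higher calls from 72.2% to 64.0%. The 1 germline call lower became 0 with a pseudocount of 0.1, without a filter and with a filter of 5 TPM, and ran from 0 to 1 with a library left out, as did the 0 higher calls. The 1 repressor call, Zbtb16, became 0 with a filter of 5 TPM and 0 without any single library, since without a Hif1a-intact library it no longer reached the filter. The 0 neighbour calls became 1, Ms4a6d, with median-ratio rescaling and ran from 0 to 2 with a library left out, the 2 being Ms4a6d and Gm11032 without Hif1a-intact replicate 1. Somatic cohesin stayed at 0 calls in every setting run.

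The median log2 difference of the 5 switched genes, -3.54, became -4.50 with a pseudocount of 0.1 and ran from -3.59 to -3.49 with a library left out. Over 8 alternatives Hormad2 ran from -5.58 to -3.97, Stag3 from -3.62 to -2.74, Oosp1 from -3.79 to -3.49 and Oosp2 from -4.50 to -2.55, and Tdrd7 changed sign, from -0.10 to 0.13. None of the switched genes had a copy to sum with. No paired analysis was possible because the labels carry no replicate numbers shared between the groups. Depth is unknown, so values near 0 carry no detection limit.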

Other observations

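The Ms4a cluster that begins beside Oosp2 held calls in both directions. Of its 17 listed genes, 14 were in the table and 8 were tested, with 1 called higher and 1 lower by limma. Ms4a4c, an interferon-responsive member, read 91.3 and 74.1 TPM with intact Hif1a and 27.0 and 21.5 TPM in the Hif1a-null libraries (log2 difference -1.73, limma adjusted p = 0.0199). Ms4a4b, expressed in T cells, read 23.1 and 24.3 TPM against 59.0 and 52.5 TPM (log2 difference 1.20, limma adjusted p = 0.0211). Ms4a6c and Ms4a6b, which lie between Ms4a4b and Oosp2, read 101 and 65.4 TPM against 32.4 and 31.5 TPM and 151 and 100.1 TPM against 74.7 and 72.0 TPM, and neither passed the test.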
